A study of Homo sapiens with 16 samples.

Results

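The BCL2 family sets the threshold at which a cell starts mitochondrial apoptosis, and 10 of its genes were followed in P493-6 cells at 2 MYC levels, with and without an inhibitor of protein myristoylation. The genes were taken by symbol from a table of 58051 genes. They comprised 4 pro-survival genes (BCL2, BCL2L1, MCL1 and BCL2A1), 2 effector genes (BAX and BAK1) and 4 BH3-only genes (BBC3, PMAIP1, BCL2L11 and BID). P493-6 is an immortalised human B cell line that carries a MYC transgene repressed by doxycycline and a viral EBNA2 protein that is active with oestrogen. High MYC cells had no additive, and medium MYC cells had 0.1 µg/mL doxycycline with 1 µM β-estradiol for 24 h. Each kind of culture then received DMSO (control) or 100 nM IMP1088, an inhibitor of N-myristoyltransferases, for a further 24 h. Each of the 4 groups had 4 libraries, all from the same line grown in DMEM with serum. The medium MYC groups carried both additives, so MYC level, doxycycline and estradiol cannot be told apart. The labels do not say whether replicates were separate cultures, so p-values measure only the spread between these samples, which may be technical.

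The family works through contacts between its members. Pro-survival proteins hold the effectors BAX and BAK1 in check, BH3-only proteins bind and neutralise the pro-survival proteins or activate the effectors directly, and active effectors open the outer mitochondrial membrane, which releases cytochrome c. In B cells, BCL2, BCL-XL (from BCL2L1), MCL1 and BFL-1 (from BCL2A1) support survival at different stages, and BIM (from BCL2L11) limits lymphocyte numbers. MYC is known to lower the barrier to apoptosis, and PUMA (from BBC3) and NOXA (from PMAIP1) are induced by many kinds of cell stress. Transcript levels do not report protein levels, which for MCL1 and BIM depend strongly on turnover.

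Sequences before the RefSeq start of 4 of the genes are shown because their motifs belong to factors whose transcripts are described below. RefSeq promoter windows on GRCh38.p14 (250 bases ending 1 base before the start) were present for 9 of the 10 genes, in 14 windows. The E-box CACGTG, a site for MYC and its relatives, occurred in 4 of the 14 windows, of 3 genes (BAX, BBC3 and BID), and in 6.34% of 35116 promoters of the same length. BID had 5 windows and BCL2L1 had 2, and the other 7 genes 1 each, so a gene with more windows had more chances of a match. The 2 BID windows with an E-box overlap and hold the same CACGTG, so 1 site was counted in both. BAX held 4 copies within its window, of which 2 lie in the stretch shown. The 190 bases before the annotated start of BAX on the plus strand (chr19:48954625-48954814), the 151 bases before that of BBC3 on the minus strand (chr19:47232767-47232917) and the 202 bases before that of PMAIP1 on the plus strand (chr18:59899746-59899947) lie outside GENCODE exons. For BCL2A1 a site of 30 bases is shown (chr15:79971241-79971270, minus strand). All 250 bases of the BCL2A1 window lie in GENCODE exons, so that site is exonic in GENCODE although it precedes the RefSeq start. Capitals mark CACGTG in BAX and BBC3, ACGTCA (the reverse strand of the CRE half-site TGACGT) in PMAIP1, and a match to TGATGNAA, the ATF4-CEBP element, in BCL2A1.
BAX: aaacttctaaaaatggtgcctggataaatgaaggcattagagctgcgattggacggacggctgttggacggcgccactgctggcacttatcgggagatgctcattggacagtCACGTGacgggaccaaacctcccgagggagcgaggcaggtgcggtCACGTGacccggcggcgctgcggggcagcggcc
BBC3: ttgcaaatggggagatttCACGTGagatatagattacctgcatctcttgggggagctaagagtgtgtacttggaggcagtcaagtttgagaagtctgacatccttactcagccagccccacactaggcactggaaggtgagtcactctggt
PMAIP1: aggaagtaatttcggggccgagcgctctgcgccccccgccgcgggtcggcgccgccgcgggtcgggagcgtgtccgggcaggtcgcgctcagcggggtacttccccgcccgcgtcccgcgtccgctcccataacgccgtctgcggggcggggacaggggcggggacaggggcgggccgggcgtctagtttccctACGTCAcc
BCL2A1: atattataaagTGATGCAAacagaaattcc
Both strands were searched, and no match in capitals overlapped that of another motif. The CRE half-site occurred in 1 of the 14 windows (PMAIP1) and in 7.1% of all promoters, and the ATF4-CEBP element in 1 of 14 (BCL2A1) and in 3.14%. The motif TGGGAA of RBPJ, the factor that brings EBNA2 to DNA, occurred in 3 of 14 (of BAK1 and BID), against 20.8%. The 2 BID windows with this motif overlap and hold the same site. The NF-kappaB motif occurred in 0 of 14, against 9.96%. The windows of BCL2 and BCL2A1, and 1 of the 2 of BCL2L1, lie wholly in GENCODE exons. Bases further upstream than the windows were not searched in any gene. A match describes letters in these windows, and no binding was measured.

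Total reads per library ran from 8755296 to 13858534, and the deposited values were counts divided by each library's size factor, so levels are given as normalized counts. Such levels are relative to the other genes and do not give transcripts per cell. A change between groups is therefore a change relative to the other genes. MYC itself lay between 29693 and 34375 in high MYC controls and between 46843 and 48049 with the inhibitor at high MYC. It lay between 904 and 1022 in medium MYC controls and between 1328 and 1444 with the inhibitor at medium MYC. Every library thus matched its MYC label. MYC was higher with the inhibitor at both levels, without overlap, so treated and control libraries did not share 1 level of MYC transcript. All 6 B cell markers were detected, with a summed level of 23822 to 24000 in high MYC controls and 38767 to 39481 in medium MYC controls. With the inhibitor these sums were 19245 to 20206 and 34125 to 35360. Of the 6, 4 were called higher and 2 lower at medium MYC in controls, where 38.9% and 37.3% of all genes tested were. The inhibitor lowered 5 at high and 4 at medium MYC, where 16.3% and 14.6% of all genes tested were called lower. MS4A1 carried most of the sum, with a mean of 11650 in high MYC controls and 22640 in medium MYC controls, whereas CD79A went from 3096 to 2854 and CD79B from 1574 to 1464. Of the other lists, 2 of 6 T cell, 2 of 5 monocyte, 2 of 5 epithelial and 1 of 5 fibroblast markers passed a mean of 10. The summed monocyte markers were 118 to 136 in high MYC controls and 108 to 119 with the inhibitor. In medium MYC controls they were 263 to 291, and with the inhibitor 248 to 276. ITGAM carried the largest part, with LYZ close to it in treated high MYC libraries (means of 55.9 and 48.8). The summed fibroblast markers, nearly all COL1A1, were 5.59 to 10.5 in high MYC controls, 4.44 to 19.4 with the inhibitor, 156 to 178 in medium MYC controls and 193 to 221 with the inhibitor, and DCN and LUM were at 0 throughout. Their part in the results was not tested. In bulk RNA, fewer cells of one kind and less RNA per cell cannot be told apart.

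The first question was how the family differed between the MYC levels without the inhibitor. All 4 pro-survival genes were higher at medium MYC, by 1.17-fold for MCL1, 3.44-fold for BCL2L1, 7.40-fold for BCL2 and 66.6-fold for BCL2A1. Among BH3-only genes BCL2L11 was 2.48-fold and BID 1.26-fold higher, and BBC3 and PMAIP1 did not pass the test. BAX was 1.40-fold higher, and BAK1 fell by 0.13 on the log2 scale. In all 8 of the 10 genes were called (limma on log2 of the normalized count plus 1, Benjamini-Hochberg adjusted p under 0.05), 7 higher and 1 lower, where 76.2% of the 13765 genes tested were called, 38.9% higher and 37.3% lower. The count of 8 is close to that background. Libraries of the 2 MYC levels did not overlap for 7 genes higher and 1 lower, where 35.6% and 33.6% of all genes (69.2% together) did not overlap. The median log2 change was 2.33 over the pro-survival genes, 0.130 over the BH3-only genes and 0.0174 over all genes tested.

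BCL2A1 (chromosome 15, 79960889 to 79971446, minus strand, GRCh38) encodes BFL-1, a pro-survival protein of activated lymphocytes. Its normalized counts were 12.1, 18.0, 8.83 and 22.4 in high MYC controls and 1022, 1035, 996 and 1057 in medium MYC controls. The high MYC control values rested on 8 to 20 reads per library, and the groups were far apart. Between them lay a log2 change of 6.06 (SE 0.25 and limma adjusted p = 1.60e-15), at percentile 99.6 of all genes tested. With the inhibitor the values were 10.8, 17.8, 13.1 and 5.2 at high MYC against 1138, 1161, 1061 and 1099 at medium MYC.

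BCL2 (chromosome 18, 63123346 to 63320128, minus strand), the founding pro-survival gene, had normalized counts of 173, 201, 189.8 and 172 in high MYC controls. In medium MYC controls it had 1365, 1359, 1302 and 1439. The lowest medium MYC library lay well above the highest high MYC library, and the log2 change was 2.89 (SE 0.06 and limma adjusted p = 5.00e-21). BCL2L1 (chromosome 20, 31664452 to 31723989, minus strand), which encodes BCL-XL, had 281, 302, 252 and 267 in high MYC controls and 909.6, 922, 988 and 973 in medium MYC controls. Its groups did not overlap either, with a log2 change of 1.78 (SE 0.06 and limma adjusted p = 4.72e-17). Exons of BCL2L1 share 1424 bases with the opposite-strand gene ABALON, and whether reads were counted by strand is not given in the sources used here.

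MCL1 (chromosome 1, 150574551 to 150579738, minus strand), a short-lived pro-survival protein, differed least among the 4. Its normalized counts were 3095, 3198, 3385 and 3199 in high MYC controls and 3918, 3865, 3537 and 3727 in medium MYC controls. Every medium MYC library was above every high MYC library, although the log2 change was 0.22 (SE 0.04 and limma adjusted p = 6.86e-06), a small step beside those of the other pro-survival genes.

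BCL2L11 (chromosome 2, 111119378 to 111168447, plus strand) was the BH3-only gene with the widest gap. It had 1188, 1206, 1276 and 1190.3 in high MYC controls and 3002, 2968, 3105 and 2989.5 in medium MYC controls. The log2 change was 1.31 (SE 0.03 and limma adjusted p = 1.58e-19), with no overlap. Its exons share 727 bases with the opposite-strand MIR4435-2HG. BID (chromosome 22, 17734138 to 17774770, minus strand), which links death receptors to mitochondria once cleaved, had 419, 405, 381 and 401 in high MYC controls and 529, 491, 550.5 and 456 in medium MYC controls. BID was higher in every medium MYC control library, by 0.33 on the log2 scale (SE 0.06 and limma adjusted p = 1.45e-05).

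BBC3 (chromosome 19, 47220822 to 47232766, minus strand) had 153, 121, 127 and 156 in high MYC controls and 111, 129, 152 and 115 in medium MYC controls. PMAIP1 (chromosome 18, 59899948 to 59904306, plus strand) had 615, 608, 817 and 749.9 against 741, 678, 549 and 680.3. Both groups overlapped for both genes. The log2 change was -0.14 for BBC3 (95% interval -0.36 to 0.08, limma adjusted p = 0.241) and -0.07 for PMAIP1 (95% interval -0.25 to 0.11, limma adjusted p = 0.460).

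Of the effectors, BAX (chromosome 19, 48954815 to 48961798, plus strand) had 838, 792, 778 and 791 in high MYC controls and 1092, 1104, 1144 and 1139.8 in medium MYC controls. It was higher in every medium MYC library, by 0.49 on the log2 scale (SE 0.03 and limma adjusted p = 1.64e-11). BAK1 (chromosome 6, 33572547 to 33580293, minus strand) had 474, 476, 475 and 487 in high MYC controls and 474, 419.5, 445 and 412 in medium MYC controls. Its highest medium MYC control (473.56) lay just below its lowest high MYC control (474.49), so these groups barely separated. The log2 change of BAK1 was -0.13 (SE 0.06 and limma adjusted p = 0.0460), and the call was lost in 12 of 20 alternative analyses, with adjusted p-values from 0.0506 to 0.142. Leaving out any single high MYC control, or medium MYC control 2, 3 or 4, was among these. BAK1 has the pseudogene copies BAK1P1 and BAK1P2, which could take some of its reads.

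**Figure D1:**
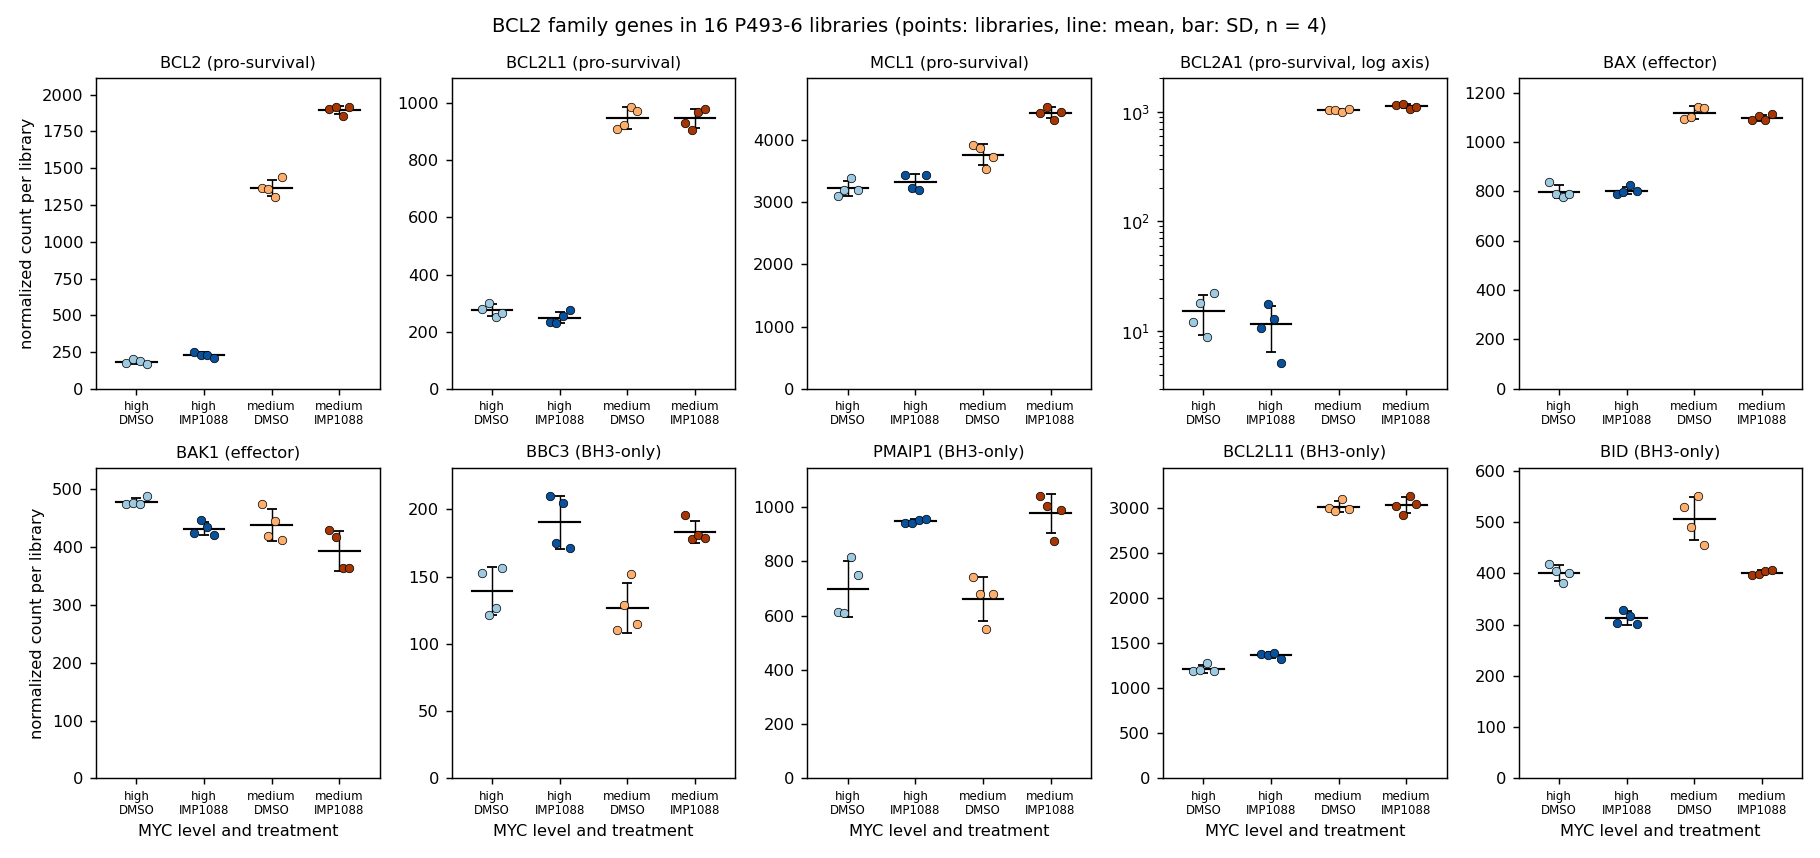
Normalized count per library (y axis, linear except for BCL2A1, which is on a log axis) of the 10 genes in the 4 groups (x axis); points are libraries, lines are means and bars are SD with n = 4. BCL2, BCL2L1 and BCL2A1 sit far higher in all medium MYC libraries, with BCL2A1 between 996 and 1161 there and between 5.2 and 22.4 at high MYC, whereas BBC3 and PMAIP1 separate by treatment.

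In the presence of the inhibitor the same comparison of MYC levels gave 8 called genes, 7 higher and 1 lower, where 77.5% of all genes were called, 39.7% higher and 37.8% lower. Libraries did not overlap for 7 genes, all higher at medium MYC, where 72.6% of all genes did not overlap, 37.2% higher and 35.4% lower. BCL2 was 8.24-fold, BCL2L1 3.80-fold and BCL2A1 94.7-fold higher at medium MYC. MCL1 was 1.34-fold and BCL2L11 2.22-fold higher. BAX had a log2 change of 0.45 and BID of 0.36 (limma adjusted p = 4.71e-06). BBC3 (-0.05, 95% interval -0.27 to 0.17) and PMAIP1 (0.04, 95% interval -0.14 to 0.22) did not pass the test. BAK1 fell by 0.14 on the log2 scale (limma adjusted p = 0.0378), and this call was lost in 8 of 20 alternatives, with adjusted p-values from 0.0502 to 0.139. Leaving out high MYC inhibitor library 2 or 3, or medium MYC inhibitor library 3 or 4, each ended it.

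**Figure D2:**
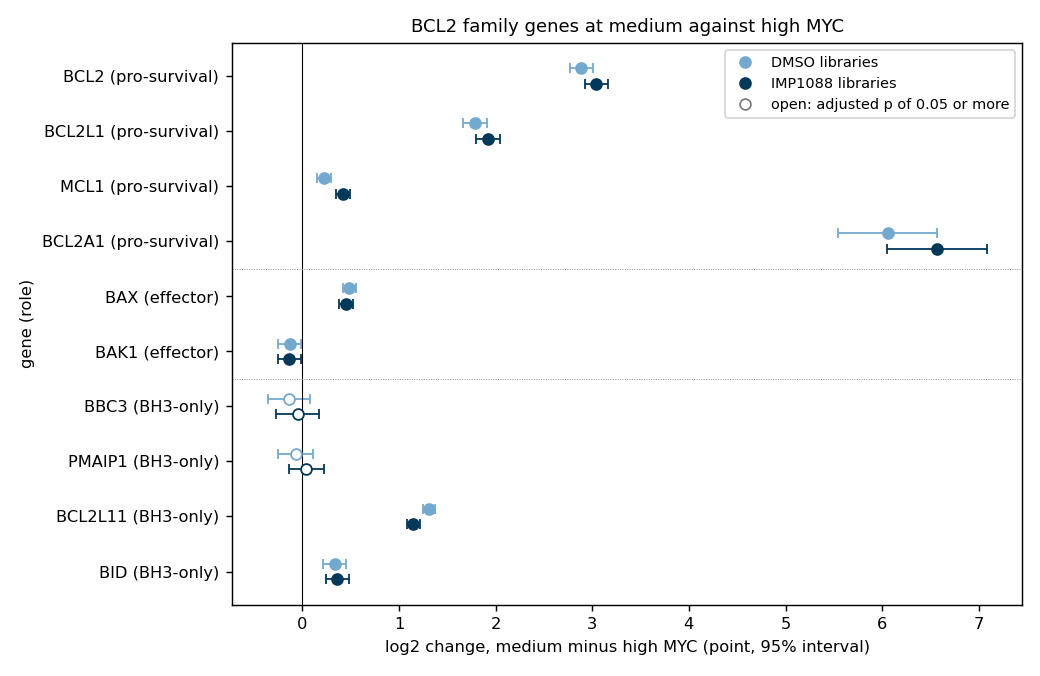
Log2 change from high to medium MYC (x axis) for each gene (y axis, by role) among DMSO libraries and among IMP1088 libraries; points are limma estimates, bars are 95% intervals, and open points have an adjusted p of 0.05 or more. The pro-survival genes spread from 0.22 for MCL1 to 6.06 for BCL2A1 among controls, and the intervals of BBC3 and PMAIP1 include 0 in both treatments.

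The second question was how the family responded to IMP1088. At high MYC, BBC3 and PMAIP1 rose 1.37-fold each, BCL2 1.25-fold and BCL2L11 1.13-fold, and BID fell by 0.36 on the log2 scale. At medium MYC, PMAIP1 rose 1.48-fold, BBC3 1.45-fold, BCL2 1.39-fold and MCL1 1.18-fold, and BID fell by 0.33. Thus 5 of the 10 genes were called at high MYC (4 higher, 1 lower) where 26.8% of all genes were called, 10.5% higher and 16.3% lower. At medium MYC 5 were called (4 higher, 1 lower) where 26.3% of all genes were called, 11.7% higher and 14.6% lower. Over all genes the split at high MYC was 1442 higher and 2247 lower, and 1727 and 1770 after quantile normalization. At medium MYC it was 1606 higher and 2012 lower, against 1962 and 1658 with equal library totals and 1963 and 1876 after quantile normalization. The BH3-only genes had a median log2 change of 0.311 at high MYC and 0.273 at medium MYC, and the pro-survival genes -0.0498 and 0.177. Over all genes tested the medians were -0.0199 and -0.00623.

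PMAIP1 encodes NOXA, a BH3-only protein that binds MCL1 and BFL-1. At high MYC its normalized counts were 615, 608, 817 and 749.9 in controls and 939.9, 942, 953 and 955 with the inhibitor. At medium MYC they were 741, 678, 549 and 680.3 in controls and 1039, 1004, 874 and 990.2 with the inhibitor. The treated libraries were above all controls at both MYC levels. The log2 change was 0.45 (SE 0.09 and limma adjusted p = 4.44e-04) at high MYC and 0.57 (SE 0.09 and limma adjusted p = 3.50e-05) at medium MYC, at percentiles 94.8 and 97.0 of all genes.

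BBC3 encodes PUMA, which binds every major pro-survival protein. It had 153, 121, 127 and 156 in high MYC controls and 209.7, 175, 205 and 172 with the inhibitor. In medium MYC controls it had 111, 129, 152 and 115, and with the inhibitor 196, 178, 181 and 178. Again no treated library overlapped a control at either level, and the log2 changes were 0.45 (SE 0.11 and limma adjusted p = 0.00294) and 0.54 (SE 0.11 and limma adjusted p = 5.63e-04). Its exons share 156 bases with the microRNA genes MIR3190 and MIR3191.

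BCL2L11 encodes BIM, a BH3-only protein that binds all pro-survival members and can activate BAX and BAK1. With the inhibitor it had 1381, 1371, 1395 and 1324 at high MYC and 3026, 2924, 3130.2 and 3050.2 at medium MYC. All treated libraries exceeded the controls at high MYC, and the groups overlapped at medium MYC. The log2 change was 0.17 at high MYC (SE 0.03 and limma adjusted p = 2.97e-04) and 0.01 at medium MYC (95% interval -0.06 to 0.07, limma adjusted p = 0.896).

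BID was the only BH3-only gene of the 4 that fell. With the inhibitor its normalized counts were 303, 329, 317 and 301 at high MYC and 396, 399, 404 and 407 at medium MYC. These were below all controls of the same MYC level. BID changed by -0.36 (SE 0.06 and limma adjusted p = 4.59e-05) at high MYC and -0.33 (SE 0.06 and limma adjusted p = 1.03e-04) at medium MYC.

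Among the pro-survival genes BCL2 rose at both levels. With the inhibitor it had 252, 232, 229 and 208 at high MYC and 1899, 1918, 1857 and 1915 at medium MYC, above every control at each level. Its log2 changes were 0.32 (SE 0.06 and limma adjusted p = 2.00e-04) at high MYC and 0.47 (SE 0.06 and limma adjusted p = 1.45e-06) at medium MYC. MCL1 had 3433, 3226, 3197 and 3426 with the inhibitor at high MYC and 4438, 4532, 4321 and 4439.7 at medium MYC. It overlapped its controls at high MYC (log2 change 0.04, 95% interval -0.03 to 0.12, limma adjusted p = 0.394) and lay above them at medium MYC (0.24, SE 0.04 and limma adjusted p = 2.61e-05).

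BCL2L1 and BCL2A1 did not pass the test at either level. BCL2L1 had 236, 232, 254 and 275 with the inhibitor at high MYC (log2 change -0.14, 95% interval -0.27 to -0.02, limma adjusted p = 0.0805) and 931, 908, 969 and 980.1 at medium MYC (log2 change -0.00, 95% interval -0.13 to 0.12). Treated and control libraries of BCL2L1 overlapped at both levels. BCL2A1 had a log2 change of -0.39 at high MYC (95% interval -0.91 to 0.12, limma adjusted p = 0.267), where 5 to 16 reads per treated library set the precision. At medium MYC its treated libraries, from 1061 to 1161, were all above the controls, from 996 to 1057, yet the log2 change of 0.12 did not pass (limma adjusted p = 0.779). In a fit of only the medium MYC libraries, which leaves out the wide spread at high MYC, its adjusted p-value was 0.0402.

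Neither effector passed the test. BAX had 791, 796, 826 and 801 with the inhibitor at high MYC (log2 change 0.01, 95% interval -0.06 to 0.08) and 1088, 1105, 1090.4 and 1113 at medium MYC (-0.03, 95% interval -0.10 to 0.04). BAX libraries of the 2 treatments overlapped at both levels. BAK1 had 424, 446, 434 and 421 with the inhibitor at high MYC, all below the controls, with a log2 change of -0.15 (95% interval -0.27 to -0.03, limma adjusted p = 0.0603). At medium MYC it had 429, 417, 363 and 364, with a log2 change of -0.15 (95% interval -0.27 to -0.03, limma adjusted p = 0.0527). BAK1 missed the threshold narrowly at both levels and passed it in 1 alternative at high MYC (adjusted p-value 0.0144, compared groups only) and in 4 at medium MYC. At medium MYC these were a filter at a mean of 100 (0.0424) and fits without control library 4 (0.0363) or without inhibitor library 1 (0.0172) or 2 (0.0342). Counting groups that did not overlap, 6 genes separated at high MYC, 4 higher and 2 lower, where 26.7% of all genes did, 10.9% higher and 15.8% lower. At medium MYC 6 separated, 5 higher and 1 lower, where 27.9% did, 12.4% higher and 15.4% lower.

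**Figure D3:**
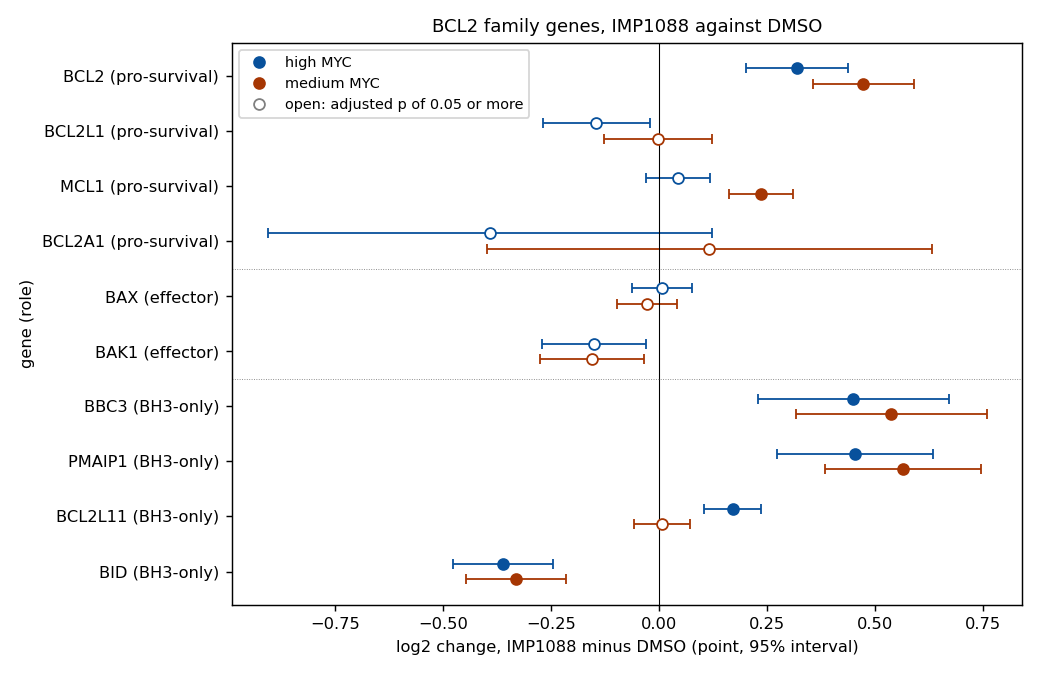
Log2 change with IMP1088 against DMSO (x axis) for each gene (y axis, by role) at high and at medium MYC; points are limma estimates, bars are 95% intervals, and open points have an adjusted p of 0.05 or more. BBC3 and PMAIP1 lie between 0.45 and 0.57, BID lies at -0.36 and -0.33, and MCL1 and BCL2L11 are each filled at only 1 MYC level.

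The third question was whether the response itself differed between the MYC levels. The difference (high minus medium MYC) passed the test for 2 of the 10 genes, 1 in each direction, where 8.63% of all genes were called, 3.31% higher and 5.33% lower. The change of MCL1 was smaller at high MYC, with a difference of -0.19 (SE 0.05 and limma adjusted p = 0.0166). The change of BCL2L11 was larger at high MYC, with a difference of 0.16 (SE 0.04 and limma adjusted p = 0.0220). Both are small, and the call on MCL1 was lost without the mean trend of the variance (adjusted p-value 0.0665). The call on BCL2L11 was lost without that trend (0.0585), with no filter on low genes (0.0508) and without medium MYC inhibitor library 2 (0.0580).

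For the other 8 genes the difference did not pass, and the intervals show how large it could be. The BCL2 difference was -0.15 (95% interval -0.32 to 0.01, limma adjusted p = 0.276), that of BBC3 -0.09 (-0.40 to 0.22) and that of PMAIP1 -0.11 (-0.37 to 0.14). That of BID was -0.03 (-0.19 to 0.13). BCL2L1 had -0.14 (-0.32 to 0.03), BAX 0.03 (-0.06 to 0.13) and BAK1 0.01 (-0.16 to 0.18). The interval of BCL2A1 was widest, from -1.24 to 0.22.

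To set pro-survival against BH3-only transcripts on 1 scale, each normalized count was divided by the length of the gene's longest coding transcript in kb. On this scale the pro-survival sum was 964 ± 25.9 (SD, n = 4) in high MYC controls, 982 ± 30.6 with the inhibitor, 2498 ± 54.7 in medium MYC controls and 2824 ± 56.7 with the inhibitor. The BH3-only sum was 827 ± 53.5, 977 ± 15.5, 1188 ± 26.1 and 1342 ± 29.7 in the same order. Pro-survival transcripts thus exceeded BH3-only transcripts by much more at medium MYC. The log2 ratio of the sums was 0.23, 0.34, 0.16 and 0.16 in the high MYC controls and 0.04, -0.02, -0.06 and 0.08 with the inhibitor. It was 1.04, 1.09, 1.04 and 1.12 in the medium MYC controls and 1.05, 1.11, 1.07 and 1.06 with the inhibitor. All treated libraries were below all controls at high MYC, whereas treated and control libraries overlapped at medium MYC. With all exons merged as the length, the mean log2 ratios were 0.437, 0.187, 1.29 and 1.26. A sum of transcripts weighs each gene by its abundance and does not measure the balance of the proteins.

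The makeup of the pro-survival sum differed between MYC levels. MCL1 held 84.9% ± 1.38 (SD, n = 4) of it in high MYC controls and 38.3% ± 1.18 in medium MYC controls. BCL2A1 held 1.54% ± 0.608 and 39.8% ± 0.422, so that at medium MYC the shares of the 2 genes were close. With all exons merged as the length they were 42.8% for BCL2A1 and 39.0% for MCL1. BCL2L1 held 11% and 14.6%, and BCL2 2.56% and 7.33%. With the inhibitor MCL1 held 86.0% at high and 39.9% at medium MYC, and BCL2A1 1.2% and 38.2%. The share of BCL2 at medium MYC was 7.22% to 7.60% in controls and 8.92% to 9.08% with the inhibitor, without overlap.

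Among BH3-only genes PMAIP1 held 43.1% ± 3.63 of the sum in high MYC controls and 28.6% ± 3.18 in medium MYC controls. BCL2L11 held 28.1% ± 1.45 and 48.5% ± 1.51, so the leading BH3-only transcript was PMAIP1 at high MYC and BCL2L11 at medium MYC. With the inhibitor PMAIP1 held 49.8% and 37.3%, and BID went from 19.6% to 12.8% at high MYC and from 17.1% to 12% at medium MYC. BBC3 was the smallest in each group, from 5.81% to 10.6%.

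**Figure D4:**
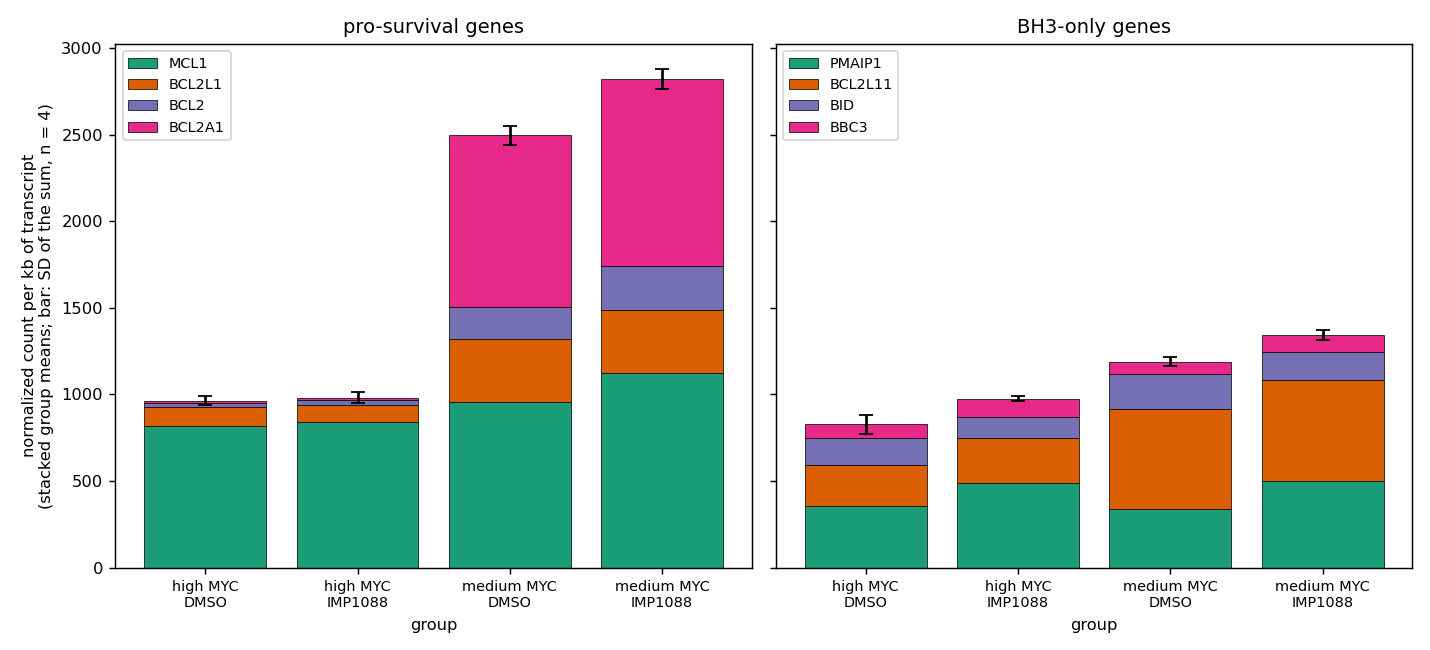
Stacked group means of normalized counts per kb of longest coding transcript (y axis) for pro-survival genes (left) and BH3-only genes (right) in the 4 groups (x axis); black bars are the SD of the sum, n = 4. The pro-survival stack is near 964 in high MYC controls, nearly all MCL1, and 2498 in medium MYC controls, where BCL2A1 and MCL1 make similar parts.

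In the order of levels per kb of the longest coding transcript, MCL1 was first (819 ± 30.7, SD, n = 4) and BAX second (589 ± 19.2) in high MYC controls, and BCL2 (24.7 ± 1.86) and BCL2A1 (14.8 ± 5.84) were last. In medium MYC controls BCL2A1 (995 ± 24.7) and MCL1 (957 ± 43.2) led, with library ranges of 964 to 1023 and 900 to 996 that overlapped. BAX (825 ± 19.1) and BCL2L11 (577 ± 11.6) followed, and BBC3 was last (69.0 ± 10.2). BAK1 (198 ± 12.6) and BID (203 ± 16.7) overlapped in that group. This order depends on the length used. With all exons merged, PMAIP1 (312 ± 46.2, from 272 to 365) and BAX (309 ± 10.1, from 301 to 324) overlapped behind MCL1 (737 ± 27.6) in high MYC controls. At medium MYC, BCL2A1 (915 to 971 in controls) then lay above MCL1 (809 to 896), BCL2L11 (446 to 466) above BAX (422 to 442) and BAK1 (186 to 214) above BID (103 to 124), each without overlap.

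Ratios between known binding partners, taken within each library on normalized counts without length, compare groups and not genes. BCL2L11 to BCL2 was 6.62 ± 0.423 (SD, n = 4) in high MYC controls, 5.97 ± 0.371 with the inhibitor, 2.21 ± 0.128 in medium MYC controls and 1.60 ± 0.0663 with the inhibitor. At medium MYC all treated libraries, from 1.52 to 1.69, lay below all controls, from 2.08 to 2.38. BCL2L11 to MCL1 ran the other way between MYC levels, at 0.377 ± 0.00476, 0.413 ± 0.0224, 0.803 ± 0.0522 and 0.685 ± 0.0325 in the same order. In that ratio treated libraries lay above controls at high MYC and below them at medium MYC. BCL2L11 to BCL2L1 was 4.44 ± 0.463, 5.52 ± 0.510, 3.18 ± 0.0985 and 3.20 ± 0.0619. BCL2L11 to BCL2A1 was 90.9 ± 40.5, 142 ± 78.2, 2.94 ± 0.128 and 2.73 ± 0.183. Both were lower at medium MYC, as was the ratio to BCL2, so MCL1 was the exception among the pro-survival partners. BID to MCL1 was 0.125 ± 0.00941, 0.0944 ± 0.00729, 0.135 ± 0.0147 and 0.0907 ± 0.00244, lower in every treated library at each MYC level. PMAIP1 to MCL1 was 0.216 ± 0.0256, 0.286 ± 0.0113, 0.176 ± 0.0147 and 0.220 ± 0.0132 in the same order, higher in every treated library at each MYC level. BAX to BCL2 was 4.37 ± 0.419, 3.51 ± 0.299, 0.821 ± 0.0394 and 0.579 ± 0.00626. BBC3 to BCL2 was 0.766 ± 0.153, 0.828 ± 0.0577, 0.0932 ± 0.0173 and 0.0966 ± 0.00480. Treated and control libraries overlapped in that ratio at both MYC levels.

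The wider pathway was read from lists of 58 genes around the 10. Its counts stand beside shares over all genes tested. The inhibitor changed 26.8% of these at high MYC (10.5% higher, 16.3% lower) and 26.3% at medium MYC (11.7% higher, 14.6% lower), the difference in response was called for 8.63%, and between MYC levels in controls 76.2% were called (38.9% higher, 37.3% lower). Of 13 other BCL2 family genes, 11 were tested. At high MYC the inhibitor raised 2 of them and lowered 3 (median log2 change -0.0464), and at medium MYC it raised 2 and lowered 2 (median -0.00700). HRK, a BH3-only gene, went from 62.9 ± 3.24 (SD, n = 4) to 100.4 ± 6.59 at high MYC and from 21.9 ± 4.0 to 40.6 ± 3.89 at medium MYC. Its log2 changes were 0.66 (limma adjusted p = 9.55e-04) and 0.88 (limma adjusted p = 4.69e-05). BMF, another BH3-only gene, rose by 0.21 and 0.31 on the log2 scale. BIK, also BH3-only, fell by 0.58 at high MYC (limma adjusted p = 0.00471). BNIP3 and BNIP3L, which act in removal of mitochondria, fell at both levels, BNIP3 by 0.14 at high MYC and by 0.49 at medium MYC. That response of BNIP3 differed between the levels by 0.35 (limma adjusted p = 0.00206), the only called difference among the 11, where 8.63% of all genes were called.

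Between MYC levels in controls, 8 of these 11 were higher at medium MYC and 3 lower, where 38.9% and 37.3% of all genes were, with a median log2 change of 0.687. HRK (-1.50), BIK (-1.0) and BMF (-0.23) were the lower ones, all BH3-only genes. BCL2L10, a pro-survival relative, was 2.84 higher on the log2 scale and BAD, a BH3-only gene, 1.23 higher. The high MYC control values of BCL2L10 rested on 5 to 11 reads per library. BCL2L14 never exceeded 1 read in a high MYC control and reached 83.8 ± 7.07 (SD, n = 4) in medium MYC controls, so no fold is given. The median stayed at 0.687 with BCL2L14 set to the bound that 3 reads allow.

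Downstream, 2 of 7 caspase and apoptosome genes fell with the inhibitor at high MYC and 1 fell at medium MYC, with median log2 changes of -0.101 and -0.135. The 2 of 7 at high MYC is close to the 26.8% of all genes called there, and at medium MYC 26.3% were called. None rose at either level by limma, at an adjusted or an unadjusted p under 0.05 (0 genes), or by edgeR or DESeq2 (0 genes). At medium MYC edgeR called 3 lower. At high MYC these were CASP10 (-0.50) and APAF1 (-0.25), the scaffold of the apoptosome, and at medium MYC it was CASP2 (-0.18). For the difference in response limma called 0 of the 7, with 0 at an unadjusted p under 0.05 and 0 by edgeR or DESeq2. In medium MYC controls 5 of the 7 were higher than at high MYC and CYCS, which encodes cytochrome c, was lower (-0.97), where 76.2% of all genes were called.

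In the death receptor arm (8 genes), 2 rose and 1 fell at high MYC, and 3 rose and 1 fell at medium MYC (median log2 changes -0.0476 and -0.0736), where 26.8% and 26.3% of all genes were called. FAS rose at both, by 0.45 and 0.51. CFLAR, which encodes the caspase-8 brake FLIP, fell by 0.18 at high MYC, from 303.6 ± 13.8 (SD, n = 4) to 268 ± 11.7, and rose by 0.45 at medium MYC, from 2392 ± 7.03 to 3277 ± 70.6. CFLAR thus moved in opposite directions, with a difference of -0.63 (limma adjusted p = 8.05e-08). TNFRSF10A (0.44) and TNFRSF10B (-0.19), both TRAIL receptors, also had called differences, where 8.63% of all genes did. In medium MYC controls 7 of 8 were higher, including FAS (3.01) and CFLAR (2.97), and TNFRSF10A was lower (-1.12), where 38.9% and 37.3% of all genes were.

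Among inhibitors of apoptosis and their antagonists (7 genes), 1 rose and 2 fell at high MYC (median log2 change -0.106), where 10.5% and 16.3% of all genes did. At medium MYC limma called 0 (median 0.00450), with 0 at an unadjusted p under 0.05 and 0 by edgeR or DESeq2, where limma called 26.3% of all genes. The riser was BIRC3, an NF-kappaB target, from 456.5 ± 75.3 (SD, n = 4) to 731.5 ± 6.86 (log2 change 0.69, limma adjusted p = 1.95e-06). Its response differed between levels by 0.61 (limma adjusted p = 0.00179), and so did that of BIRC5 (-0.21). BIRC3 was 2.66 higher on the log2 scale in medium MYC controls. Of 8 partners and turnover factors, 2 rose and 2 fell at high MYC and 1 rose and 2 fell at medium MYC, including TRIB3 (-0.50 and -0.35) and VDAC3 (-0.21 and -0.23), with medians of -0.00980 and -0.0305, where 26.8% and 26.3% of all genes were called. For the difference limma called 0 of them, 1 had an unadjusted p under 0.05, and edgeR and DESeq2 called 0.

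Of 15 regulators of transcription, 3 rose and 1 fell at high MYC, and 4 rose and 3 fell at medium MYC (median log2 changes 0.0156 and 0.0560). The 4 of 15 at high MYC is close to the 26.8% of all genes called there, and at medium MYC 26.3% were called. MDM2, a ubiquitin ligase, rose by 0.40 (limma adjusted p = 1.61e-07) and 0.47 (limma adjusted p = 1.50e-08). NFKB2 (0.32) and RELB (0.35), of the noncanonical NF-kappaB arm, rose at high MYC, with called differences of 0.25 and 0.35. ATF4 and DDIT3, of the integrated stress response, rose at medium MYC by 0.34 and 1.67, with differences of -0.42 (limma adjusted p = 2.47e-06) and -1.41 (limma adjusted p = 0.00145). DDIT3 went from 48.1 ± 8.46 (SD, n = 4) to 153.6 ± 9.81 there. STAT5B fell by 0.23 and by 0.69, a difference of 0.46. In all 6 of the 15 had called differences, where 8.63% of all genes did. In medium MYC controls 10 were higher and 4 lower (median log2 change 0.779), where 38.9% and 37.3% of all genes were, with NFKB2 3.25 and RELB 1.76 higher and FOXO3 lower (-2.29). No high MYC control had more than 3 reads of TP73, against a level of 145 ± 11.6 (SD, n = 4) in medium MYC controls. Set to the bound that 3 reads allow, TP73 left the median at 0.779.

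**Figure D5:**
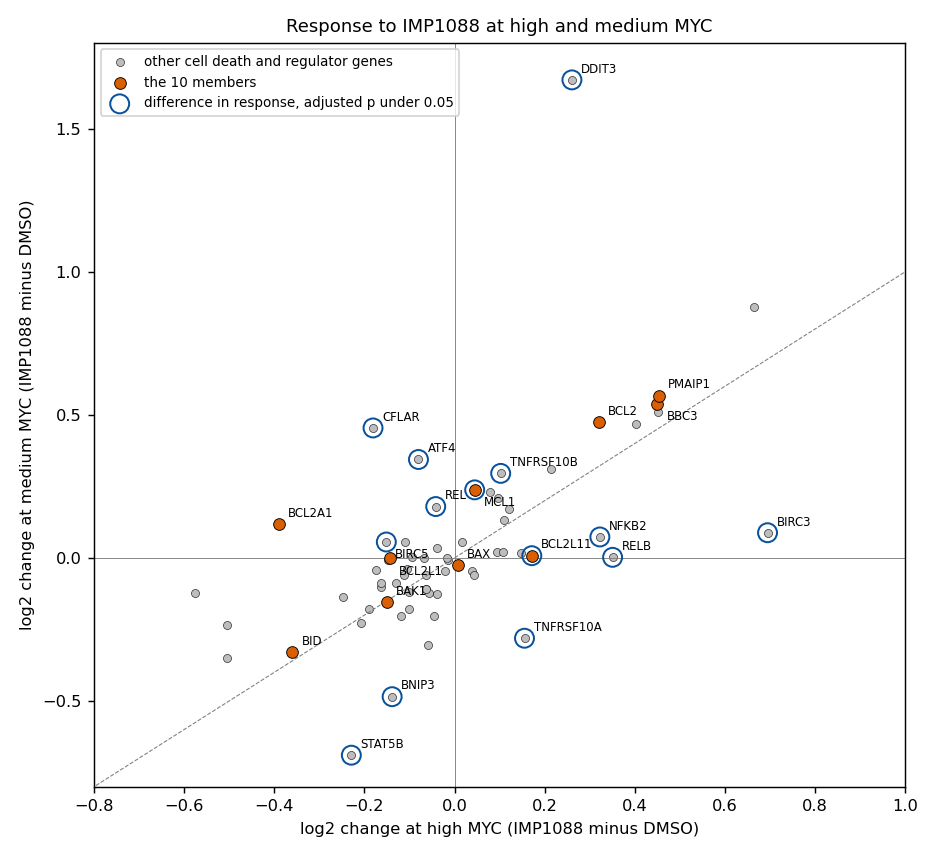
Log2 change with IMP1088 at high MYC (x axis) against that at medium MYC (y axis) for the 10 genes and the tested genes of the 6 pathway lists; the dashed line marks equal change and rings mark genes whose difference in response had an adjusted p under 0.05. MCL1 and BCL2L11 are ringed, PMAIP1, BBC3, BCL2 and BID are not, and DDIT3 stands apart at 0.26 and 1.67. BCL2 (difference -0.15) lies about as far from the line as BCL2L11 (0.16).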

How the data were processed

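RNA was isolated with a miRNeasy kit and libraries were made with a Nugen kit, per the labels' protocols. The submitters' processing notes name STAR 2.5.2a, RSEM 1.2.31, DESeq2 1.16.1 and GRCh38; their roles, the annotation and the use of strand are not given in the sources used here. The deposited values are an expression signal, named normalized counts. In each library all values (100.0%) were whole multiples of 1 step within 1e-06, and the steps matched median-of-ratios size factors (0.858 to 1.33), so whole reads could be recovered. No molecular identifiers are recorded, so reads may repeat molecules.

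limma 3.58.1 (R 4.3.3) was fitted to log2 of the value plus 1, with a mean trend, over 13765 genes (mean 10 or more), all 16 libraries in 1 fit of 4 group means. Tests were two-sided, with Benjamini-Hochberg adjustment over all tested genes and a threshold of 0.05. All 10 genes passed the filter. Fold changes are of value plus 1 and understate changes of low genes. The members and lists were chosen with earlier results of these data known. All 10 members are named in each comparison, with up to 4 called genes per list by smallest p-value and others that stand out by role; not every gene this selects is printed, and some list genes are not reported here. Symbols matched 56948 of 58051 identifiers. Positions and transcript lengths are of GENCODE 29. MCL1 had no promoter entry. Alternatives were equal library totals, quantile normalization, pseudocounts 0.1 and 10, no filter and a mean of 100, no mean trend, edgeR 4.0.16 and DESeq2 1.42.0 on recovered reads, a replicate block, compared groups only, and each library left out. A GC correction was added after seeing the data. The limma fit was also run on simulated data with changes planted only in the high MYC inhibitor group. Those data held no difference between MYC levels in controls.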

Additional observations from a re-analysis of the deposited data

Results flagged for a closer look

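Among 40 sets of 4 libraries (each of the 10 genes in each of the 4 groups), 2 held a library that stood apart from the other 3 by more than Dixon's 95% critical value for the gap over the range; chance alone gives about 1 in 20. BAK1 in high MYC control library 4, at 487, had a gap of 0.869 of the range, the other 3 libraries lying between 474 and 476. BBC3 in medium MYC inhibitor library 1, at 196, had a gap of 0.840, the others lying between 178 and 181.

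The response to IMP1088 differed between MYC levels by test for MCL1, by -0.19 on the log2 scale (high minus medium), and for BCL2L11, by 0.16.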

How the results depend on the processing

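Of 50 values (10 genes in 5 comparisons), 34 kept direction and call under every alternative run. Over 1070 alternative values, 1008 kept both, 24 lost a call, 9 gained one and 29 reversed sign. The lost calls were those of BAK1 between MYC levels and the differences in response of MCL1 and BCL2L11. The number of genes called for the difference was 2, but 1 with no filter, 0 with no mean trend, and 1 to 2 when single libraries were left out. Without the trend 2 genes still had an unadjusted p under 0.05 in limma, and edgeR and DESeq2 each called 2; the cause was not tested. No reversed value had passed the test as reported. BCL2L1 at medium MYC (-0.0016) became 0.0264 with equal totals, 0.0425 with quantile normalization, 0.0085 in edgeR, 6e-04 in DESeq2 and 0.043 with the GC correction, and lay between -0.0213 and 0.0184 with single libraries left out. BAX at medium MYC became 0.0013, 0.0017 and 0.0639 with equal totals, quantile normalization and the GC correction. BCL2L11 at medium MYC became -0.0095 with the GC correction (-0.0079 to 0.025 with libraries left out). The BAK1 difference became -0.0048 with equal totals and -0.0013 in edgeR (-0.0335 to 0.048), and the BID difference 0.0023 with quantile normalization (-0.07 to 0.02). BBC3 between MYC levels with the inhibitor became 0.1111 with the GC correction. With libraries left out, BAX at high MYC lay between -0.0053 and 0.0304, and PMAIP1 between MYC levels in controls between -0.1338 and 0.0156. BAX at high MYC gained a call with the GC correction (adjusted p-value 0.0400), and BCL2L1 at high MYC without control library 3 (0.0268) or inhibitor library 4 (0.0208). Same-numbered libraries did not deviate together (correlations of deviations from -0.154 to 0.239; in 3 of 16 checks a library correlated best with its own number). The replicate block moved no call of the 10 genes: 5 were called at high MYC, 5 at medium MYC, 2 for the difference, 8 between MYC levels in controls and 8 with the inhibitor, with all genes called at 3468, 3425, 1052, 10419 and 10601. Depth limits BCL2A1 at high MYC, with 5 to 20 reads per library.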
